A study of Mus musculus with 5 samples.

Results

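The YAP ChIP-seq peak list of 3T9MycER;YAP fibroblasts holds 10293 of the 122868 peaks in the 4 deposited peak lists, and its members are every region that the authors' peak caller reported for the YAP antibody sample. The cells are immortalized mouse embryonic fibroblasts of the 3T9 line, described in the series as quiescent and confluent, and the labels give their genotype as 3T9MycER. They express MycER, a Myc protein that responds to 4-hydroxytamoxifen (OHT), and, from a doxycycline-inducible vector brought in by transduction, an activated mutant of YAP. All 4 ChIP samples (YAP, TEAD, Myc and RNA polymerase II, RNAPol2; 1 sample each) received 400 nM OHT and 2 µg/ml doxycycline. There was no ChIP sample without doxycycline, so peaks of the induced mutant and of endogenous YAP cannot be told apart. Chromatin for YAP was fixed with a second crosslinker before 1% formaldehyde, and that for the other antibodies with 1% formaldehyde alone, so antibody and fixation cannot be told apart where YAP is compared with them.

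YAP is a transcriptional coactivator without a DNA-binding domain of its own. The kinases of the Hippo pathway phosphorylate it and keep it in the cytoplasm, and mutants that escape this enter the nucleus, where YAP reaches DNA mainly through the TEAD family of transcription factors. TEAD sites lie both at promoters and at distant enhancers, and RNAPol2 gathers at active promoters, along transcribed genes and, more weakly, at many enhancers. How far RNAPol2 lies from a YAP summit therefore places a YAP peak relative to the sites with most polymerase, without assigning it to a gene.

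The YAP library held 29528304 tags, against 31770727 for TEAD, 20441605 for Myc and 38345189 for RNAPol2, and each list was called against 1 shared control library of 60189064 tags. The other lists held 48571 TEAD, 14354 Myc and 49650 RNAPol2 peaks. Since each antibody had 1 sample, the error between samples is unknown and no test was made. The intervals below are 95% intervals (Wilson for shares, order statistics for medians) that cover counting error only and treat peaks as independent. Coordinates are those of the mm9 build.

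Most YAP peaks were low and narrow, and a small upper tail was both high and wide. Pileup, the number of extended ChIP tags over the summit, ran from 14 to 316 with a median of 25, and its quartiles were 21 and 33. A pileup of at least 50 was reached by 839 peaks (8.15%) and of at least 100 by 110 peaks (1.07%). The bulk of the list thus lay within a narrow band of pileup. By the caller's −log10 p the list reached well above its cutoff of 5, with a median of 12.82 and 0.583% of peaks under 6. Width ran from 203 to 1977 bp with a median of 321 bp (318 to 325), and 18.1% of peaks were at least 500 bp wide. The least width, found in 581 peaks (5.64%), equals the fragment length that the caller estimated for this library, so these peaks were as narrow as the caller could report. Fragment length was 185 bp for TEAD, 233 bp for RNAPol2 and 288 bp for Myc, so widths are not compared between lists.

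Fold enrichment, the ratio of the pileup to the local control level, ran from 1.40 to 63.95 with a median of 6.49 (6.41 to 6.55). It was at least 10 in 1527 peaks (14.8%) and at least 20 in 167 (1.62%). Height and width went together along the list. Peaks of the least width had a median pileup of 19 and a median fold enrichment of 5.3, the 2497 peaks of 300 bp to under 400 bp had 27 and 6.86, and the 108 peaks of at least 1000 bp had 60 and 11.8. The rank correlation of pileup with width was 0.627 over the 10293 peaks, which share 1 library and 1 calling threshold. Summits sat near the centre of their peaks, at a median of 33 bp from the middle.

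The 5 widest peaks were not the 5 highest. The widest, chr15:6228709-6230685, spanned 1977 bp with a pileup of 61 and a fold enrichment of 13.92. Next came chr9:102619751-102621467 (1717 bp, pileup 138) and chr9:102664666-102666357 (1692 bp, pileup 151), which lie in the same stretch of chromosome 9. The others were chr10:90703657-90705297 (1641 bp) and chr6:127279318-127280924 (1607 bp). Each of the 5 overlapped a TEAD, a Myc and an RNAPol2 peak, and each had its summit within 1 kb of an RNAPol2 summit.

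The top of the list depended on which measure of height was used. The peak of highest pileup, chr2:98502368-98503187, had a pileup of 316 but a fold enrichment of 2.12, and the control level there was 46.5 times the lowest control level in the list. The next by pileup were chr9:35112720-35113179 (297), chr2:98503814-98504249 (281), chrUn_random:5496673-5497219 (268) and chr15:74917073-74917524 (267), with fold enrichments between 1.78 and 1.85. All 5 thus stood on a control signal far above that of other YAP peaks. In all, 36 peaks had a control level at least 5 times the lowest (5.98 to 52.1 times), with a median pileup of 185.5 and a median fold enrichment of 1.84. These 36 peaks made up 17 of the 20 highest by pileup and 0 of the 20 highest by fold enrichment, and the 20 highest by either measure had 2 peaks in common. Of the 36, 8 lay on chromosome 9, 7 on chromosome 17, 6 on the mitochondrial genome, 5 on chromosome 11 and 3 each on chromosome 2 and unplaced sequence. TEAD peaks overlapped 28 of them, Myc peaks 30 and RNAPol2 peaks 18, while over all YAP peaks the overlap was 91.6% with TEAD, 30.9% with Myc and 48.0% with RNAPol2. These peaks thus overlapped Myc more often, and TEAD less often, than the list as a whole. The overlapping peaks were themselves low over control at the 5 of highest pileup, with fold enrichments of 1.65 to 2 for TEAD and 2 to 2.76 for Myc.

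Among the other 10257 peaks the highest by pileup was chr9:63744055-63744793, with a pileup of 205 and the highest fold enrichment of the list, 63.95. It was followed by chr15:11724151-11725080 (192, fold enrichment 23.02), chr7:148662117-148662914 (186, 54.16), chr10:80423616-80424480 (176, 35.34) and chr5:143720609-143721520 (175, 49.92). These 5 were 739 to 930 bp wide, all overlapped TEAD, Myc and RNAPol2 peaks, and their summits lay 80 to 1006 bp from an RNAPol2 summit. At the other end of the list, the 3 peaks of lowest −log10 p were chr15:75949916-75950121 (5.01), chr15:80778944-80779411 (5.07) and chr15:34349764-34350119 (5.13), all on chromosome 15. Their control levels were 2.30 to 3.53 times the lowest.

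**Figure D1:**
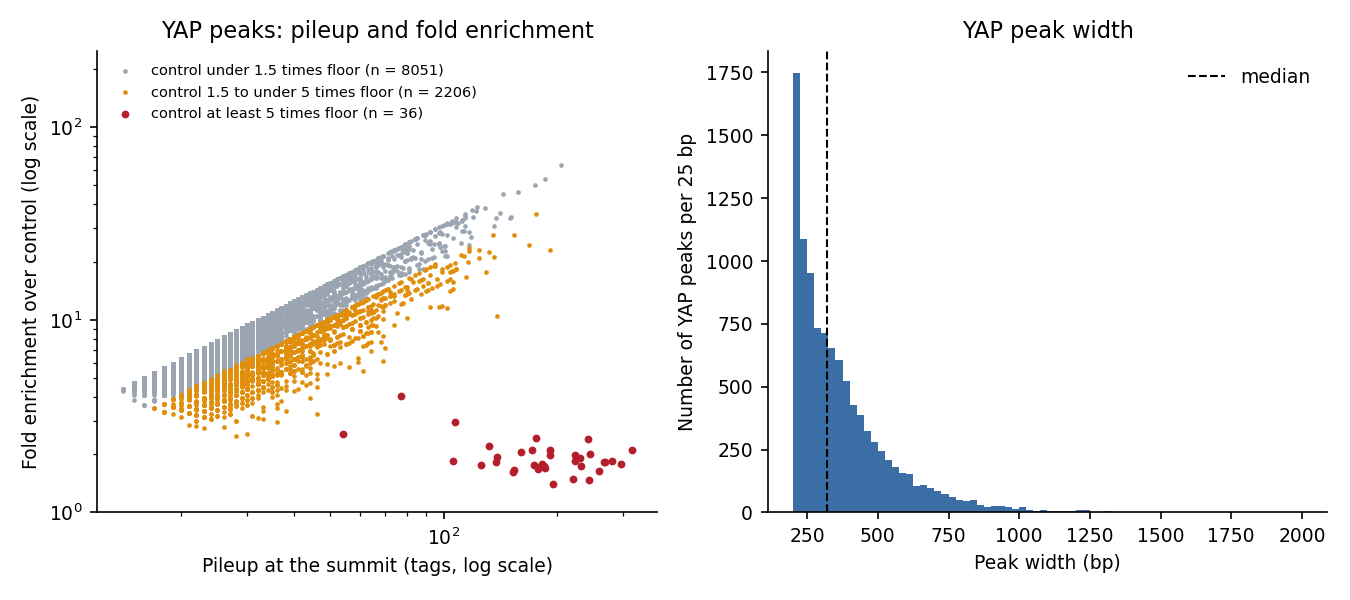
Left, fold enrichment over control against pileup at the summit (both log scales) for the 10293 YAP peaks, 1 point per peak, coloured by the control level relative to the lowest in the list; right, the number of peaks per 25 bp of width, with the median of 321 bp dashed. The 36 peaks on a control level of at least 5 times the lowest form a separate group of high pileup and a fold enrichment of 4.02 or less.

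YAP summits came in close groups as well as far apart. The nearest other YAP summit lay at a median distance of 25049 bp (24082 to 26406), with quartiles of 5724.5 and 79471 bp. Another YAP summit lay within 1 kb of 10.0% of summits, within 10 kb of 32.5% (31.6 to 33.4) and within 100 kb of 79.3%, and 95 summits (0.923%) had none within 1 Mb. Distances between neighbouring summits had a main hump, with 1282 pairs between 100 and 178 kb, and a shoulder of short distances. There were 283 pairs between 562 and 1000 bp and 248 between 1000 and 1778 bp, a difference within counting error. Of the 10269 neighbouring pairs, 540 (5.26%, 4.84 to 5.71) were at most 1 kb apart and 543 (5.29%) were over 1 Mb apart.

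How frequent close YAP summits were beside the other lists depended on how those lists were taken. Taken whole, as YAP was, the other lists were denser and held more: another summit of the same list lay within 1 kb of 17.0% of TEAD, 13.2% of Myc and 36.0% of RNAPol2 summits, against the 10.0% of YAP. Cut to as many of their strongest peaks by fold enrichment they held fewer, and neighbours at most 1 kb apart made up 0.652% of pairs for TEAD (0.514 to 0.828), 1.84% for RNAPol2 and 3.85% for Myc (3.49 to 4.24). The intervals of these shares do not overlap that of YAP. The least width the caller could report also differed, at 203 bp for YAP, 185 bp for TEAD, 233 bp for RNAPol2 and 288 bp for Myc. Its part in the shares of close pairs was not tested. In the range of 1000 to 1778 bp alone, pairs of the strongest Myc summits were more frequent (373) than YAP pairs (248). Counted per summit, another summit of the same list lay within 5000 bp of 23.4% of YAP and 21.0% of the strongest Myc summits. Without chromosome 15 these shares were 21.0% (20.2 to 21.9) and 20.6% (19.8 to 21.5), with intervals that overlap. On all chromosomes together, the order within 100000 bp was reversed, at 79.3% for YAP and 81.3% for Myc. These subsets were selected for height and the YAP list was not, and in the complete TEAD list the median nearest distance was 6369.5 bp. By the median, YAP summits lay closer to each other than the strongest TEAD summits (34364 bp), and without chromosome 15 the medians were 29670 and 35120 bp. By chromosome, median nearest distances were shorter for YAP on 12 of 20 only. Summits with no other within 1 Mb were not rarer for YAP, at 0.923% (0.756 to 1.13) against 0.602% (0.470 to 0.772) for the strongest TEAD summits.

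**Figure D2:**
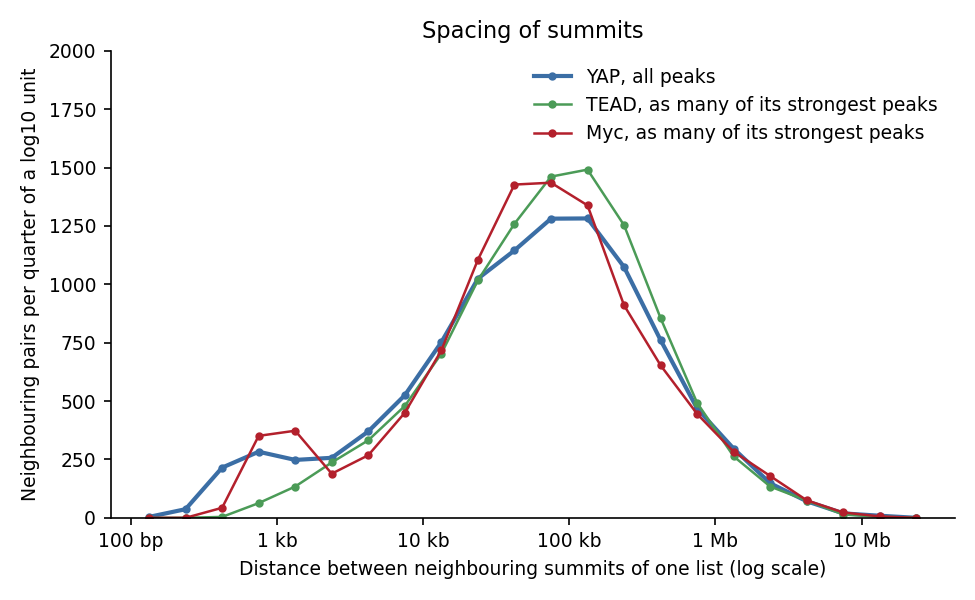
Number of neighbouring summit pairs per 0.25 of a log10 unit of distance (log axis), for all YAP peaks and for as many of the strongest TEAD and Myc peaks by fold enrichment. The YAP curve has a shoulder of short distances that continues past 1 kb, below its main rise around 100 kb. Of 10269 YAP pairs, 540 were at most 1 kb apart.

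Many close YAP pairs fell inside 1 peak of another list. Both summits lay inside a single TEAD peak in 56.9% of the 540 pairs (52.6 to 61.0), inside a single RNAPol2 peak in 47.6% and inside a single Myc peak in 19.1%. The blank between the edges of the paired YAP peaks had a median of 196 bp. Counted per summit, 66.2% of the summits in close pairs were within 1 kb of an RNAPol2 summit, against 42.4% of those in neighbouring pairs over 100 kb apart. Paired summits had little in common in height. The rank correlation of their pileups was 0.103 over the 540 close pairs and 0.0343 over the 3585 pairs 100 kb to 1 Mb apart, while that of their control levels, which share windows of the control library, was 0.591 and 0.262.

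The closest pair lay on chromosome 9, with summits at 3026662 and 3026771, 109 bp apart, where the control level was 31.9 and 33.0 times the lowest. Without the 36 peaks on a raised control the closest pair was on chromosome 19, with summits at 4938875 and 4939046, 171 bp apart, and both lay in a single TEAD peak of fold enrichment 7.92.

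When summits at most 10 kb apart were linked, the list formed 8354 groups. Lone summits made up 67.6% of the list, 1058 groups were pairs, and 343 groups of 3 or more held 1224 summits (11.9%). The largest groups had 9 summits each and both lay on chromosome 15, at chr15:66693030-66725139 and chr15:78661919-78675590. With a link of 20 kb the largest held 14 summits, at chr9:102617308-102687001, a stretch that includes the second and the third widest peaks. All 14 peaks overlapped a TEAD peak, 11 an RNAPol2 peak and 4 a Myc peak, and the counts for TEAD and Myc were near the shares of the whole list.

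The density of YAP peaks varied widely between chromosomes. Over chromosomes 1 to 19 and X, measured up to the last peak of any list, there were 3.90 peaks per Mb, with 12 peaks on mitochondrial and unplaced sequences. Chromosome 15 had 14.1 peaks per Mb and chromosome 19 had 10.2, against a median of 3.14 for the autosomes other than chromosome 15. Chromosome 11 (5.98) and chromosome 9 (5.55) followed. The fewest were on X (0.931), chromosome 12 (1.23) and chromosome 14 (1.57). All 4 lists were dense on chromosomes 15 and 19, and the excess there was larger for YAP than for the others.

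On chromosome 15, YAP density was 4.49 times the median of the other autosomes, against 2.23 times for TEAD, 2.05 for RNAPol2 and 1.68 for Myc. The 1457 peaks there were 14.2% of the list. The excess was uneven over peak strength: chromosome 15 held 33.5% of the lowest decile of fold enrichment and 8.93% of the highest, and in the stronger 50% of the list its density was 2.50 times the median. By pileup the share was lowest in the lowest decile, at 5.53%, and was 23.4% in the seventh and 18.1% in the highest. Among peaks with a control level under 1.5 times the lowest, it was 5.30% in the lowest decile of pileup and 6.65% in the highest. By fold enrichment it was 15.9% and 4.54% among these peaks. Median fold enrichment was lowest on chromosome 15 among the 20 chromosomes, at 5.58. The control level divides fold enrichment and was raised along this chromosome, with medians of 1.22 to 1.83 times the lowest in windows of 10 Mb, and its part in the excess was not tested. Density was raised along the whole of it, at 9.6 to 22.4 peaks per Mb in those windows, and no window came down to the median of the other autosomes.

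**Figure D3:**
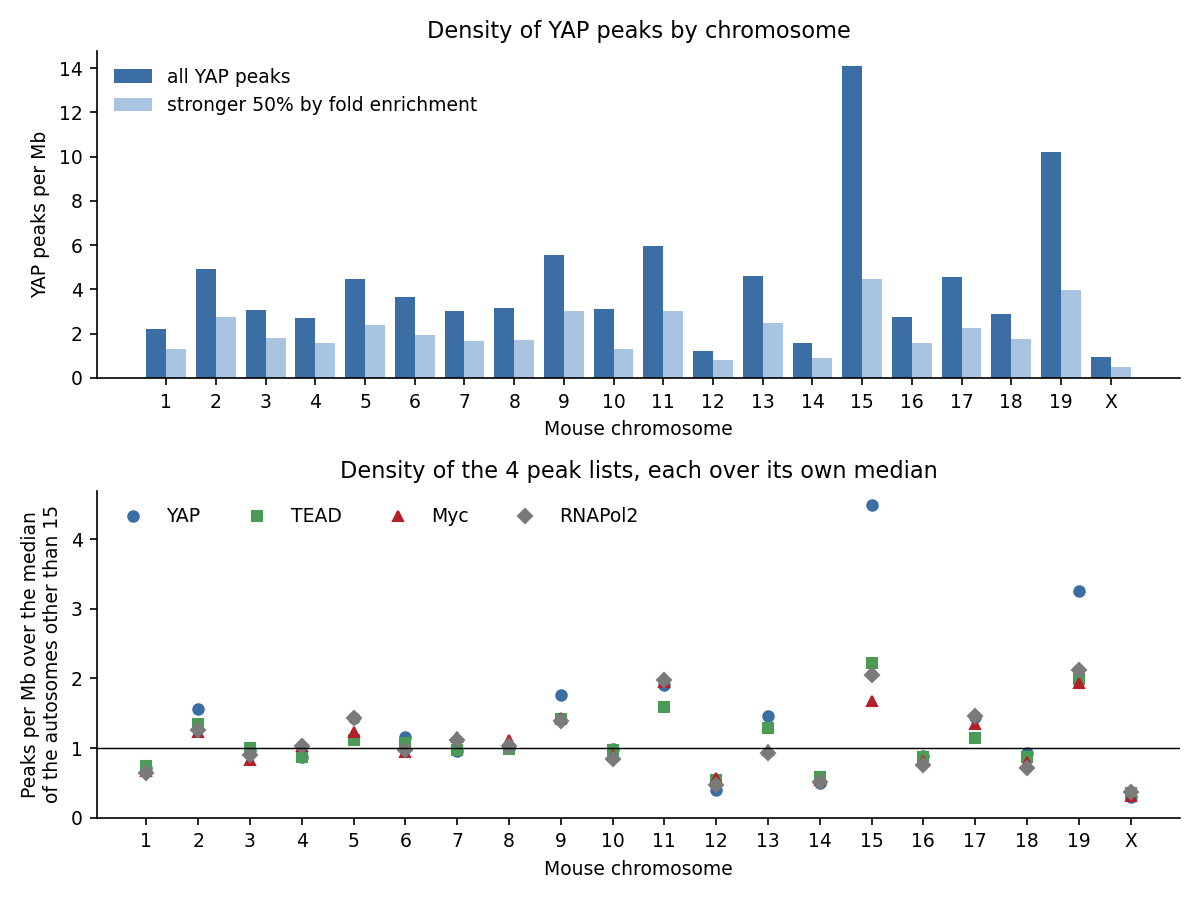
Top, YAP peaks per Mb on each mouse chromosome for the whole list and for the stronger 50% by fold enrichment (bars from 0); bottom, peaks per Mb of each of the 4 lists over that list's median for the autosomes other than 15, with 1 marked by a line. Chromosomes 15 and 19 stand highest for YAP at 4.49 and 3.25 times the median, and X lowest.

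In bins of 1 Mb the list was patchy. Of 2647 bins, 798 (30.1%, 28.4 to 31.9) held no YAP summit, the median was 2 summits, and 288 bins (10.9%) held at least 10. At least 20 summits were found in 55 bins, of which 35 were on chromosome 15 and 8 on chromosome 19. The 3 fullest bins, with 39 summits each, all lay on chromosome 15, and began at 11, 42 and 79 Mb. The fullest 5% of bins held 25.9% of YAP summits, more than the 19.0% of as many of the strongest TEAD summits and close to the 26.2% of as many of the strongest Myc summits. Bins without YAP held the other factors less often than all bins did: 51.8% against 84.9% held a TEAD summit, 31.3% against 74.0% an RNAPol2 summit and 26.8% against 71.2% a Myc summit. Their median was 1 TEAD summit. Bins with at least 10 YAP summits held a median of 48 TEAD summits.

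The longest stretch between neighbouring YAP summits was 13.0 Mb, on X from 112144515 to 125112667, and held 2 TEAD, 1 Myc and 1 RNAPol2 summits. The next was 11.9 Mb on chromosome 12, from 58601467 to 70520179, with 36 TEAD, 24 Myc and 65 RNAPol2 summits. The third, 11.8 Mb on chromosome 1 from 108526862 to 120285779, held 14 TEAD, 8 Myc and 31 RNAPol2 summits. The stretch on X was thus nearly free of all 4 lists. That on chromosome 12 held peaks of the other 3, but fewer per Mb than the chromosome as a whole. Chromosome 12 had 9.48 TEAD, 3.01 Myc and 8.34 RNAPol2 peaks per Mb.

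YAP summits fell into a group close to RNAPol2 and a group far from it. The nearest RNAPol2 summit lay at a median distance of 1656 bp (1368 to 1961; n = 10292, since 1 peak on chr13_random had no RNAPol2 peak on its sequence). An RNAPol2 summit lay within 250 bp of 31.2% of YAP summits, within 1 kb of 47.0% (46.1 to 48.0) and within 10 kb of 60.6%. It was over 100 kb away for 1529 summits (14.9%) and over 1 Mb away for 81. The median fell in a sparse range between 2 humps: 10.4% of summits were at 100 to 178 bp, 3.03% at 1.8 to 3.2 kb and 6.68% at 56 to 100 kb, each in steps of equal size on a log scale. Close to RNAPol2, summits were about evenly frequent over the first 150 bp, with 732, 761 and 715 in successive rings of 50 bp, and fell to 254 in the ring of 250 to 300 bp.

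Taken whole, the YAP list lay between those of TEAD and Myc in this respect. An RNAPol2 summit lay within 1 kb of 33.6% of TEAD summits and 85.5% of Myc summits, and the YAP share was above that of TEAD and below that of Myc on 20 of 20 chromosomes. Against as many of the strongest TEAD peaks the difference was small and its direction depended on the window. Within 1 kb the shares were 47.0% for YAP (46.1 to 48.0) and 45.5% for TEAD (44.5 to 46.4), with intervals that overlap. The YAP share was higher on 15 of 20 chromosomes. Within 250 bp the TEAD share was higher, at 33.00% (32.09 to 33.91) against 31.18% for YAP (30.29 to 32.08), and these intervals do not overlap. Over 10 kb from RNAPol2 were 39.4% of YAP summits, 42.2% of the strongest TEAD summits and 7.71% of Myc summits.

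**Figure D4:**
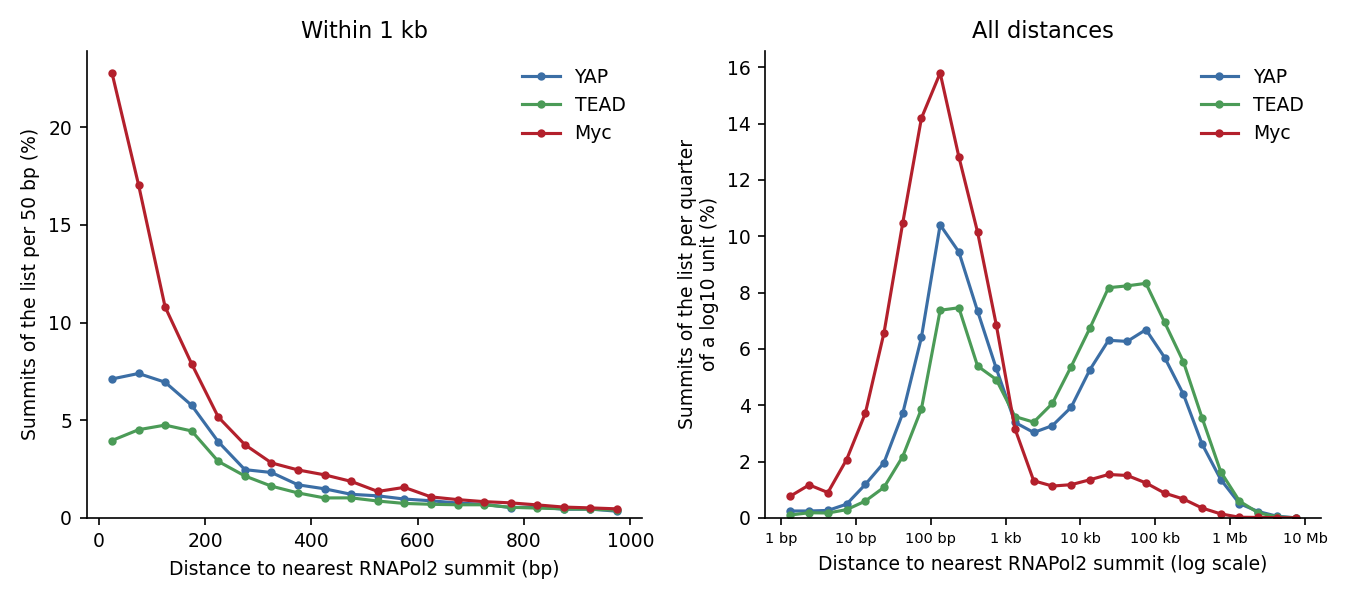
Distance from each YAP, TEAD or Myc summit to the nearest RNAPol2 summit, as a percentage of the list's summits per 50 bp up to 1 kb (left) and per 0.25 of a log10 unit over all distances (right, log axis). YAP has a near hump, 10.4% of summits at 100 to 178 bp, and a far hump, 6.68% at 56 to 100 kb. In the near hump it lies between the complete TEAD and Myc lists.

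The highest YAP peaks were more often close to RNAPol2. In the lowest 5 deciles of pileup the share of summits within 1 kb of an RNAPol2 summit was 37.7 to 40.4%, and it reached 51.6% in the eighth, 57.5% in the ninth and 74.5% in the highest (71.7 to 77.0). The share over 10 kb away was 45.4% in the lowest decile and 18.4% in the highest. By fold enrichment the share within 1 kb was 44.4% in the lowest decile, 37.7% in the fourth and 72.6% in the highest, so the rise was again found at the top of the list. In peaks with a control level under 1.5 times the lowest, the highest decile of pileup reached 77.3%, and without chromosome 15 it reached 75.5%. Of YAP peaks with a fold enrichment of at least 20, 136 were within 1 kb of RNAPol2 (2.81% of the near peaks) and 16 were over 10 kb away (0.395% of the far peaks).

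**Figure D5:**
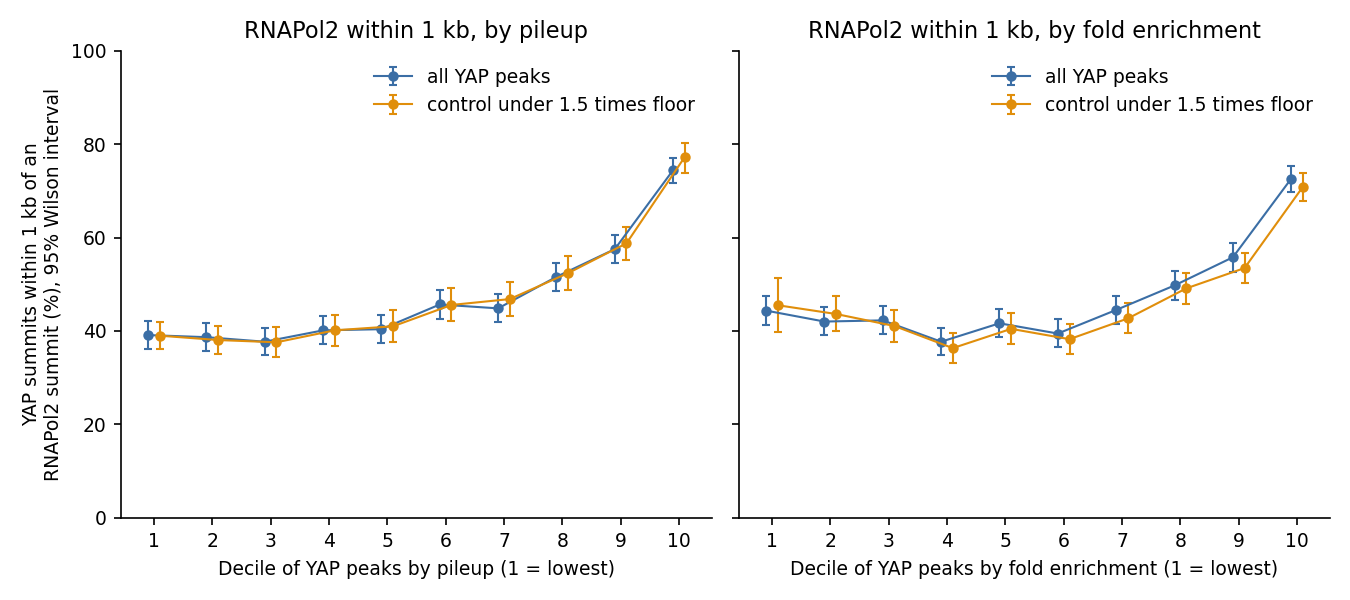
Percentage of YAP summits within 1 kb of an RNAPol2 summit in each decile of pileup (left) and of fold enrichment (right), for all YAP peaks and for those with a control level under 1.5 times the lowest, with 95% Wilson intervals as bars. The share stays near 40% over the lower deciles and reaches 74.5% by pileup and 72.6% by fold enrichment in the highest.

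Seen by distance, the change came early and then stopped. Peaks at 0 to 100 bp from RNAPol2 had a median pileup of 29 and a median width of 377 bp, and peaks at 100 to 250 bp had 30 and 392 bp. From 250 bp on the median pileup was 24 in each range up to over 100 kb, with a median fold enrichment of 6.24, while width was 332 bp at 250 bp to 1 kb and 288 to 289 bp beyond. The median height of the peaks beyond was therefore the same whether RNAPol2 was 1 kb or over 100 kb away. The control level was also higher near RNAPol2, with a median of 1.21 times the lowest within 1 kb (1.18 to 1.22) and 1.07 times over 10 kb away, and its part was not tested.

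TEAD and Myc differed in how often they were found at YAP peaks near to and far from RNAPol2. The nearest TEAD summit lay at a median of 49 bp for YAP summits both within 1 kb of RNAPol2 and over 10 kb from it, with 70.6% and 71.7% of summits within 100 bp. TEAD peaks overlapped 96.8% of the near YAP peaks (96.3 to 97.3) and 87.9% of the far ones (86.9 to 88.9). At 1 to 10 kb the overlap was lower than at either, 84.0% (82.0 to 85.8). It also rose with height, from 84.0% in the lowest decile of pileup to 99.2% in the highest. For Myc the overlap was 54.3% of near and 7.43% of far YAP peaks, and the median distance to a Myc summit was 508 bp for near and 67929 bp for far ones. Close TEAD summits were thus a common property of near and far YAP peaks, whereas Myc peaks were found mostly at the near ones. The Myc list as a whole also lay mostly near RNAPol2, with 85.5% of its summits within 1 kb and 7.71% over 10 kb away. Of the 3178 YAP peaks that overlapped Myc, 2627 were near and 301 far. The spacing of YAP summits did not follow distance from RNAPol2 in 1 direction. The median distance to the nearest other YAP summit was 23733 bp for summits at 0 to 100 bp from RNAPol2, 18905 bp at 100 to 250 bp, 13338.5 bp at 250 bp to 1 kb and 8748 bp at 1 to 10 kb, and then 34303 bp at 10 to 100 kb and 71669 bp beyond 100 kb.

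Of the YAP peaks over 100 kb from any RNAPol2 summit, the 3 of highest pileup all stood on a raised control: chr15:74917073-74917524 (267), chrUn_random:5249296-5249660 (230) and chr9:2999931-3000426 (221). Among the others the highest was chr13:25731812-25732283, with a pileup of 124, a fold enrichment of 22.98 and 619.751 kb to the nearest RNAPol2 summit. It overlapped a TEAD peak of fold enrichment 60.86 and no Myc peak. The next were chr9:73320368-73320772 (pileup 105, fold enrichment 32.76), also with TEAD (79.86) and without Myc, and chr19:57897860-57898593 (102, 18.9), which overlapped a TEAD peak of 30.17 and a Myc peak of 5.34.

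Within 100 bp of an RNAPol2 summit the 3 of highest pileup again stood on a raised control: chr2:98502368-98503187 (316), chr17:39985351-39985766 (245) and chr2:98506410-98507464 (242). Without such peaks they were chr15:11724151-11725080 (192, 80 bp from the RNAPol2 summit), chr15:58985871-58986991 (154, 89 bp) and chr9:67055764-67056858 (141, 97 bp). All 3 overlapped a TEAD peak, of fold enrichment 38.39, 51.39 and 84.17. Their pileups were above those of the far peaks just named, which reached 124.

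Most RNAPol2 peaks had no YAP summit nearby. Over all 49650 RNAPol2 summits, 10.1% had a YAP summit within 1 kb. By decile of RNAPol2 fold enrichment the share was 7.25% in the lowest and 5.30% in the third. It was 16.3% in the eighth, 16.0% in the ninth and 17.8% in the highest. Median RNAPol2 width was 322 bp in the lowest decile and 1524 bp in the highest, and its part was not tested. YAP peaks thus accompanied a minority of RNAPol2 peaks in each decile, and a larger one among the highest.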

How the data were processed

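ChIP-seq was performed with antibodies against YAP, TEAD, Myc and RNAPol2, 1 sample each, in cells treated with 400 nM OHT and 2 µg/ml doxycycline, and samples were grouped by their titles. The remaining sample, titled as input, has an IgG in its antibody field and a title that names no treatment. It was not used here, and whether it is the control library is not given in the sources used here. Nothing says that the samples came from separate cultures. Chromatin fragments averaged 250 bp.

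Tools named in the submitters' processing notes are MACS2 2.0.9, SAMtools and BWA 0.6.2, with mm9 as the genome build. Each sample's peaks were called by the authors on their own, per the file headers, at a p-value cutoff of 1e-05, from 51 bp tags, with at most 2 tags kept per position and local backgrounds from 1000 and 10000 bp windows. The deposited pileup is a signal, the height of extended tags at the summit. The −log10 p-value and −log10 q-value were computed by the authors' caller, and the fold enrichment, also as deposited, is a ratio of pileup to local background. Because that background cannot fall under a genome average, the control level, computed here as pileup over fold enrichment, has a floor, within 5% of which 35.5% of YAP peaks lay.

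Distances were taken between summits on the same sequence, overlap was at least 1 bp, and near and far meant within 1 kb and over 10 kb of an RNAPol2 summit. Lists of equal length took the 10293 peaks of highest fold enrichment. Named regions followed a rule: the 5 peaks of highest pileup, the 5 widest, the closest pair, the 3 fullest 1 Mb bins, the 3 longest empty stretches, the 3 highest over 100 kb from and within 100 bp of RNAPol2, and the 3 of lowest −log10 p. The members, rules and most comparisons were chosen with earlier results of these data known. The repeats of the rule without peaks on a control of at least 5 times the floor, the splits by decile, by distance and by control level and the linked groups were chosen after seeing the data. Python 3.11.15, numpy 2.4.6, pandas 2.3.3, scipy 1.17.1 and matplotlib 3.10.9 were used, and the routines were tested on simulated data. No mm9 genome or annotation was used here, so peaks were not assigned to genes and no sequence is shown.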

Additional observations from a re-analysis of the deposited data

How the results depend on the processing

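Of 60 alternative values of 11 results, 24 lay within the interval of the value given above and 36 outside it; none changed a direction, since no result was a signed difference. Leaving out mitochondrial, Y and unplaced sequences, or, chosen after seeing the data, the 36 peaks on a raised control, moved none of the 9 YAP results outside its interval.

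With the stronger 50% of the list by fold enrichment (5151 peaks), median width was 389 bp and median pileup 32, the nearest YAP summit lay at a median of 59475 bp, 17.8% had another summit within 10 kb, 40.6% of bins were empty, chromosome 15 stood at 2.50 times the median, and the median distance to RNAPol2 was 691 bp, with 52.4% within 1 kb and 36.0% over 10 kb away. With a −log10 q of at least 10 (4690 peaks) the same values were 417 bp, 34, 58355 bp, 17.9%, 44.5%, 3.67 times, 492.5 bp, 55.4% and 33.6%. Fewer peaks by construction lie further apart and leave more bins empty. Without chromosome 15 the nearest YAP summit lay at 29670 bp and 29.5% had another within 10 kb.

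A window of 5 or 20 kb in place of 10 kb gave 23.4 and 45.4%, bins of 500 kb and 2 Mb were empty in 45.5 and 17.5%, windows of 500 bp and 2 kb around RNAPol2 gave 40.3 and 51.0%, and a limit of 20 kb left 32.9% far from RNAPol2. The distance to RNAPol2 depended most on how RNAPol2 was defined: against the stronger 50% of RNAPol2 peaks the median was 10609 bp, with 34.9% within 1 kb and 50.7% over 10 kb away, and to the nearest edge of the RNAPol2 peak it was 479.5 bp, with 51.3% within 1 kb. For TEAD, a −log10 q of at least 10 gave 35.9% within 1 kb of RNAPol2 and a nearest distance of 10959 bp, and as many of the strongest peaks as in the YAP list gave 45.5% and 34364 bp.

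No paired analysis was possible because each antibody had 1 sample, so there was also no replicate to leave out. The depth of 29528304 tags limits how many weak sites are listed, and sites without a listed peak were not shown to lack YAP.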
